A study of Mus musculus with 6 samples.

Results

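The transcripts of 41 genes that take up, activate and burn fatty acids, or that sense them in the nucleus, were compared between cochleae with and without Fabp7. The genes were taken from a list in 5 roles, which are the PPAR/RXR receptors, activation and import, mitochondrial beta-oxidation, peroxisomal oxidation and PPAR targets. A gene counted as measured when a probe carrying its symbol was brighter in raw signal than the 40th percentile of the array on 3 or more of the 6 arrays, and the brightest such probe stood for the gene. Of the 41 genes 39 were measured, among 27189 features tested in all, of which 16143 were named genes. The acyl-CoA synthetase Acsl1 and the uncoupling protein Ucp2 had no probe with their name. Each of the 39 probes passed on 6 of 6 arrays, so none of them entered through 1 group alone.

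Fatty acids enter cells with the help of CD36 and fatty acid transport proteins, are joined to coenzyme A by acyl-CoA synthetases, and cross into mitochondria as carnitine esters through the CPT1 enzymes, the carrier SLC25A20 and CPT2. Inside, repeated rounds of dehydrogenation, hydration, oxidation and thiolysis shorten the chain, while peroxisomes handle very long and branched chains. Peroxisome proliferator-activated receptors (PPARs) bind fatty acids, pair with retinoid X receptors (RXRs) and switch on many genes of this pathway, and fatty acid binding proteins such as FABP7 are known to carry ligands to them in other cells.

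The samples were 3 pools of Fabp7 (+/+) and 3 of Fabp7 (-/-) cochleae. Every pool held 4 cochleae from 2 female mice aged 7 months, with the otic capsule, the bone around the cochlea, kept and the vestibular organs removed. The labels give no strain and no detail of how the allele was made, beyond a genotype that holds for the whole animal. Since whole tissue was measured, fewer cells of a type and less RNA per cell cannot be told apart in any value below.

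All values are 1-colour Agilent array signals divided by the 75th percentile of their array, called scaled signals here, so a scaled signal of 1 equals that percentile. They are always listed for wild-type arrays 1, 2 and 3 and then for knockout arrays 1, 2 and 3. A change is the knockout mean minus the wild-type mean of the log2 scaled signal, with the standard error (SE) of the limma fit, and p-values were adjusted over all 27189 features by the Benjamini-Hochberg method. The 75th percentile of the raw signal lay between 581.06 and 677, and pairs of arrays correlated at 0.988 to 0.994 across features. For dim probes wild-type array 1 differed, its 25th percentile being 6.66 where the rest had 3.92 to 4.69. Of 14 cochlear identity genes 12 were measured, with summed scaled signals over 13 probes of 718 to 786 in wild type against 746 to 804 in knockout. Otos alone gave 458 to 494 and 461 to 499 of these sums, so they say little about the other genes. The lowest sum was that of wild-type array 2. Slc26a5, on a dim probe, was higher on every knockout array, at 0.92 ± 0.25 (limma unadjusted p = 0.00980, adjusted p = 0.695). Kcnq1 was too, at 0.27 ± 0.11 (unadjusted p = 0.0506). The probe of Kcne1 was dim on every array. Fabp7 itself gave scaled signals of 3.95, 2.34 and 2.79 in wild type against 0.0179, 0.00604 and 0.00590 in knockout. The probe passed the filter on the 3 wild-type arrays alone, and in knockout it was dimmer than the 40th percentile, so that the size of the change has only a bound. With signals under that percentile raised to it, the change was −6.57 (limma adjusted p = 0.00108).

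Like most features on the arrays, most of the pathway genes lay within a narrow band around no change. Of the 39 measured genes 34 had a change within 0.25 in either direction on the log2 scale, against 84.4% of all features, and 3 reached 0.5, against 3.77% of all features. At an adjusted p under 0.05 none of the 39 was called, as was 0% of all features, and their adjusted p-values ran from 0.781 to 0.997. At an unadjusted p under 0.05 limma gave 0 genes that were higher in knockout, against 3.04% of all features, and 3 that were lower, against 2.66% of all features. These 3 were Cd36 and Slc25a20, which bring fatty acids into the cell and into the mitochondrion, and Angptl4, a secreted PPAR target. The count was 1 without wild-type array 2, which left Angptl4, and 1 without knockout array 2, which left Cd36.

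The groups did not overlap for 8 genes. Of these 3 were higher on every knockout array than on any wild-type array, namely Echs1, Hadh and Acaa1a, against 8.08% of all features. A further 5 were lower on every knockout array, namely Cd36, Acsl4, Hadha, Etfa and Angptl4, against 4.27% of all features. In both directions together 20.5% of the measured members were apart, against 12.4% of all features. With fewer arrays overlap is rarer everywhere. The 8 became 16 (41.03%) without wild-type array 1, where 27.1% of all features were apart, 15 (38.5%) without knockout array 1, where 21.3% were, and 14 (35.9%) without knockout array 3, where 27.3% were. The median change of the 39 was 0.0058 beside 0.034 for all features, with 14 genes above that median and 25 below it. Of the 39 genes 20 lay above 0 and 19 below. Of all features 16514 lay above 0 and 10675 below, which is the background for every count by sign in the text. Each 95% interval reflects the spread between arrays on 1 probe and was not adjusted for the number of features. Further probes of Rxra, Acsl6, Cpt2 and Etfa gave changes outside the interval of the brightest probe. The interval of 33 of the 39 lay wholly between −0.5 and 0.5, as did that of 17561 of all 27189 features. Its median width to either side was 0.21 for the 39, a 1.16-fold difference, and 0.28 for all features.

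**Figure D1:**
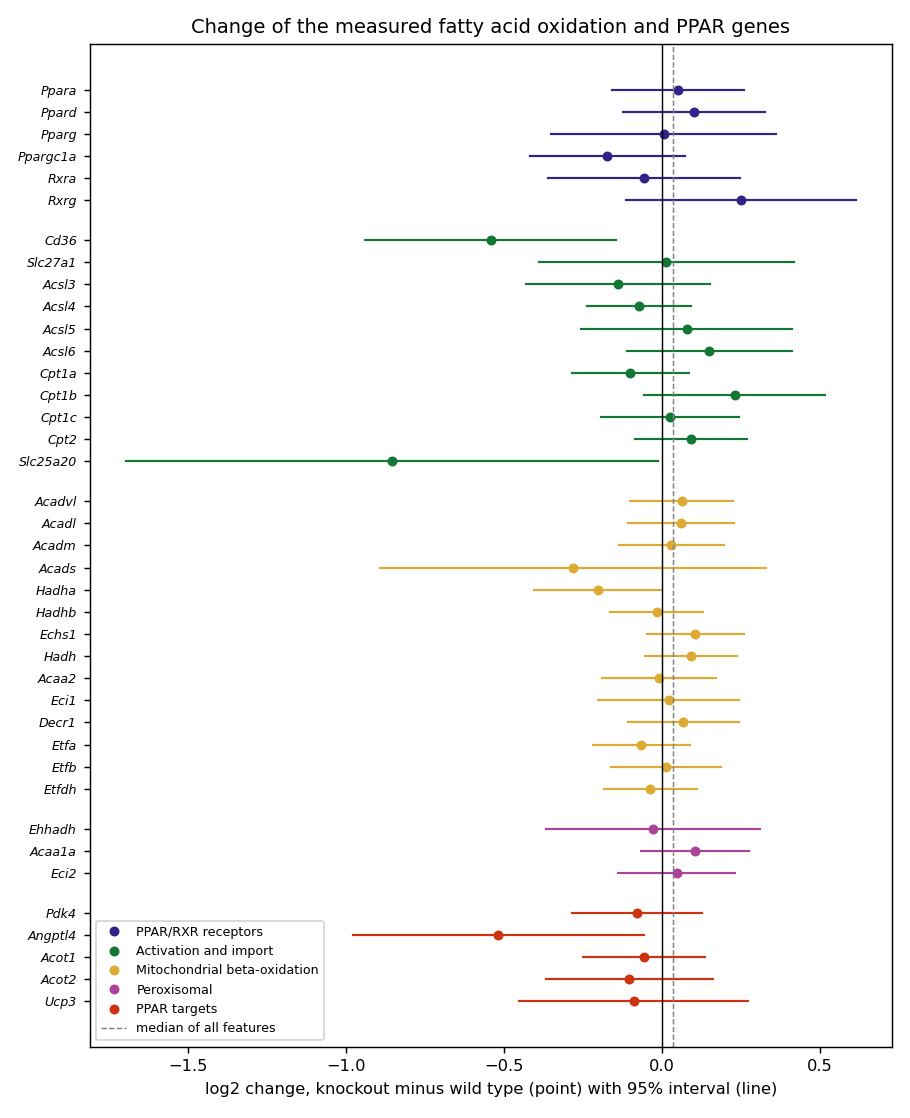
Log2 change, knockout minus wild type, of the 39 measured genes by role (points) with 95% intervals from limma (lines); the dashed line is the median of all 27189 features, at 0.034. Most points lie within 0.25 of 0, and Slc25a20, Cd36 and Angptl4 lie farthest to the left, at −0.86, −0.54 and −0.52.

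3 promoter windows are shown because they belong to the genes for which the groups differed most in import and in the trifunctional protein. They are RefSeq sequence on GRCm38.p6, from 250 bases before to 50 after the annotated start, read 5′ to 3′ on the strand of the gene. Cd36 lies on the minus strand at chr5:17835847-17836146, Slc25a20 on the plus strand at chr9:108661886-108662185, and Hadha on the minus strand at chr5:30154931-30155230. In the windows of Cd36 and Slc25a20 capitals mark AGGTCA, the core that nuclear receptors such as PPAR and RXR bind, or its reverse complement; in the window of Hadha capitals mark the part shared with the window of Hadhb.

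Cd36: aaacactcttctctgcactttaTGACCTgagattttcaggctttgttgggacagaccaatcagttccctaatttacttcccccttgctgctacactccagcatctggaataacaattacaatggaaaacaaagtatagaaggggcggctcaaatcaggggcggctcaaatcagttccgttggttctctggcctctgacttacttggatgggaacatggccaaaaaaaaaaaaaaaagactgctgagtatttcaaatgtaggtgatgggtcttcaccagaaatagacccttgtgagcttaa

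Slc25a20: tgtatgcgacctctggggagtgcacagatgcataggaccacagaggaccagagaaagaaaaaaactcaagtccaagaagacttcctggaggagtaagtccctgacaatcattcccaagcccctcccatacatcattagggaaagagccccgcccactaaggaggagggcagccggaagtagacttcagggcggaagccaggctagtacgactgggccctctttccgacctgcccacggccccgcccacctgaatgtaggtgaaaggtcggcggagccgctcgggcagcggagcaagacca

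Hadha: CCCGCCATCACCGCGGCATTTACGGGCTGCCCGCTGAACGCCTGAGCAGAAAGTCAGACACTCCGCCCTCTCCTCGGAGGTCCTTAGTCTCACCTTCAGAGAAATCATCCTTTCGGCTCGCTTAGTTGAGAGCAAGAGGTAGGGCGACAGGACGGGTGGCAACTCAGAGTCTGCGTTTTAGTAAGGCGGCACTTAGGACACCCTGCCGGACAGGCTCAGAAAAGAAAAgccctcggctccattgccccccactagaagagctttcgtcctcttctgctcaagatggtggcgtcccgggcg

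The Cd36 window held AGGTCA once, on the reverse strand at bases 23 to 28 of the window, 228 bases before the start. No such element was found in the Slc25a20 window, which says only that these letters are not within it. Promoter windows were matched for 37 of the 41 genes, 46 windows in all. No window was counted for Angptl4, Acaa2, Cpt1b or Decr1, while those of Acsl1 and Ucp2, which were not measured, were counted. Any window of the 41 genes on 1 chromosome was left out by rule, a step not applied to the windows over the genome. Of the 46 windows 12 (26.1%) held AGGTCA on either strand, against 16.3% of 32851 windows of the same length over the genome. AGGTCA repeated in the same direction after 1 base, the spacing at which PPAR and RXR pairs bind, was in 0 of the 46 windows and in 0.0396% of all windows. These matches describe letters and not bound sites. Hadha and Hadhb, which encode the alpha and beta subunits of the mitochondrial trifunctional protein, are read from opposite strands with starts 273 bases apart, so that their windows share 228 bases.

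The receptors came first in the order of roles, and on the brightest probe of each the groups overlapped. Ppara, the main PPAR of fatty acid oxidation, gave scaled signals of 1.36, 1.36 and 1.45 in wild type against 1.36, 1.37 and 1.58 in knockout. Ppard, the broadly expressed PPAR, gave 2.64, 2.59 and 2.78 against 3.11, 2.94 and 2.57. Pparg, the PPAR of fat cells, gave 1.13, 1.499 and 1.59 against 1.51, 1.37 and 1.32. The groups overlapped for all PPARs, with changes of 0.05 ± 0.09 (limma adjusted p = 0.927) for Ppara, 0.10 ± 0.09 (adjusted p = 0.878) for Ppard and 0.01 ± 0.15 (adjusted p = 0.997) for Pparg. Their 95% intervals ran from −0.16 to 0.26, from −0.12 to 0.33 and from −0.35 to 0.36.

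Ppara was read by 3 probes, and the other two gave larger changes of 0.19 ± 0.09 and 0.21 ± 0.10, with unadjusted limma p-values of 0.0689 and 0.0683. The first of these was higher on every knockout array, so the size of the Ppara difference depended on the probe. Ppargc1a, the coactivator PGC-1α that drives mitochondrial genes, gave 7.46, 6.82 and 6.01 in wild type against 6.31, 5.92 and 5.72 in knockout. Its change of −0.17 ± 0.10 (adjusted p = 0.866) was not seen on its further probe, which gave −0.00 ± 0.09.

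Among the RXRs, Rxra, the most widely expressed partner of PPARs, gave 0.169, 0.143 and 0.156 against 0.143, 0.134 and 0.174, a change of −0.06 ± 0.12 (adjusted p = 0.943) with overlapping groups. A further Rxra probe gave 0.27 ± 0.20, opposite in sign to the brightest Rxra probe. Rxrg, the RXR form enriched in muscle and brain, gave 2.39, 2.04 and 2.09 in wild type against 2.10, 2.93 and 2.80 in knockout, a change of 0.25 ± 0.15 (adjusted p = 0.866). Knockout arrays 2 and 3 were high and knockout array 1 lay within the wild-type range. The further Rxrg probe gave 0.27 ± 0.09 with an unadjusted p of 0.0249 (adjusted p = 0.824) and was higher on every knockout array, at 1.46, 1.58 and 1.52 against 1.38, 1.14 and 1.28. Both probes of Rxrg thus read higher in knockout by about the same amount, on the same RNA pools. On both, wild-type array 1 was the highest of the wild types and knockout array 2 the highest of all. Those arrays also stood out for skeletal muscle markers, as given below. The part of muscle in the Rxrg values was not tested. Of the 6 receptor genes 4 lay above 0 and 2 below, with a median of 0.03.

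The lowest p-value of the 39 genes belonged to import across the plasma membrane. Cd36, a scavenger receptor that takes up long-chain fatty acids, gave scaled signals of 0.339, 0.488 and 0.497 in wild type against 0.306, 0.283 and 0.307 in knockout. Every knockout array lay below every wild-type array, and wild-type array 1 was the closest to them. In log2 the means were −1.20 ± 0.31 and −1.74 ± 0.07 (SD, n = 3 each), a change of −0.54 ± 0.16 or 1.46-fold lower in knockout, with a 95% interval from −0.94 to −0.15 (limma unadjusted p = 0.0157, adjusted p = 0.781). Leaving out 1 array at a time kept the change between −0.72 and −0.45, and without wild-type array 2 the unadjusted p was 0.0505.

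CD36 is also a surface protein of capillary endothelium, macrophages and fat cells, and markers of these cells were measured beside it. Of 7 endothelial markers 6 lay below 0. Tek, the angiopoietin receptor, was at −0.28 ± 0.08 (limma unadjusted p = 0.0161) and Pecam1, an endothelial junction protein, at −0.22 ± 0.09 (unadjusted p = 0.0484). These and Cdh5, at −0.03 ± 0.06, were the 3 that were lower on every knockout array, against 4.27% of all features. The summed scaled signal was 35.4 to 41.6 in wild type against 38.1 to 39.0 in knockout. Egfl7, the only marker above 0, alone gave 25.7 to 32.3 and 29.0 to 30.4 of these sums. Of 7 macrophage markers 7 lay below 0, where 10675 of all 27189 features did. The complement gene C1qa was at −0.26 ± 0.08 (limma unadjusted p = 0.0203) and the chemokine receptor Cx3cr1 at −0.18 ± 0.06 (unadjusted p = 0.0286). These 2 (28.6%) were lower on every knockout array, against 4.27% of all features. The summed signals of the macrophage markers were 74.4 to 84.9 against 73.1 to 78.0. Csf1r alone gave 39.1 to 45.0 and 39.1 to 41.4 of these sums. Of 7 measured white adipocyte markers 4 lay below 0. The summed signals of the 8 white adipocyte probes were 11.2 to 13.4 against 11.9 to 13.9. The lipid droplet gene Plin1 was at −0.81 ± 0.26 (limma unadjusted p = 0.0196) and Cidec at −0.73 ± 0.23 (unadjusted p = 0.0209). The lipase Lipe was at −0.49 ± 0.17 (unadjusted p = 0.0264). These 3 (42.9%) were lower on every knockout array, against 4.27% of all features. Each gave a scaled signal of 0.243 or less on every array, so the sums say little about them. The lipase Pnpla2 was at 0.18 ± 0.10, and the remaining 3 lay between −0.01 and 0.04. Over the marker lists of these cells the lowest adjusted p was 0.788. The part of these cells in the Cd36 difference was not tested.

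**Figure D2:**
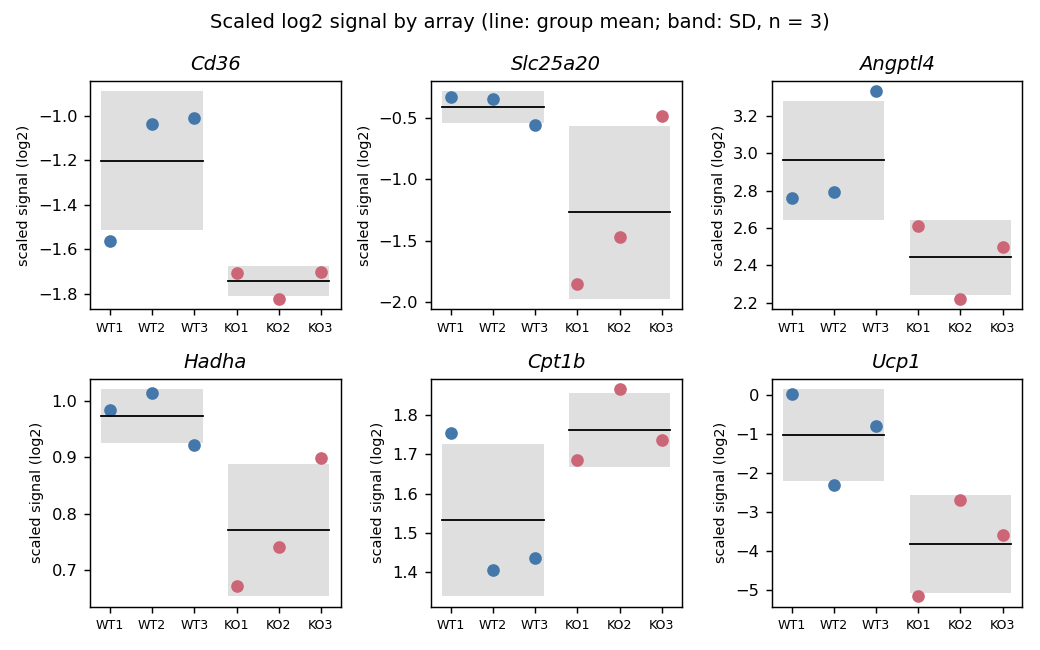
Log2 scaled signal of 5 pathway genes and the brown fat marker Ucp1 on each array (WT1 to WT3 wild type, KO1 to KO3 knockout; points), with the group mean (line) and SD (band, n = 3); each panel has its own axis. The Cd36, Angptl4, Hadha and Ucp1 groups do not overlap, while knockout array 3 lies within the wild-type range for Slc25a20 and wild-type array 1 within the knockout range for Cpt1b.

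The acyl-CoA synthetases, which activate fatty acids, gave small changes of both signs. Acsl4, which prefers arachidonic acid, gave 4.33, 4.496 and 4.34 in wild type against 3.96, 4.28 and 4.29 in knockout. Its groups were apart by a small margin, with a change of −0.07 ± 0.07 (unadjusted p = 0.323). Acsl6, the form rich in brain, gave 2.22, 1.80 and 1.83 against 2.09, 2.30 and 2.08, a change of 0.15 ± 0.11 (unadjusted p = 0.207), and its further probe read −0.36 ± 0.25, so the direction differed between its probes. Acsl3, linked to lipid droplets, was at −0.14 ± 0.12 and Acsl5 at 0.08 ± 0.14. The fatty acid transport protein gene Slc27a1 was at 0.01 ± 0.17.

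The carnitine shuttle was mapped from the outer to the inner membrane. Cpt1a, the liver form of the gate-keeping enzyme, gave scaled signals of 6.39, 6.77 and 7.21 in wild type against 6.10, 6.31 and 6.58 in knockout, a change of −0.10 ± 0.08 (adjusted p = 0.871). Cpt1b, the muscle form, gave 3.38, 2.65 and 2.71 against 3.21, 3.65 and 3.33, a change of 0.23 ± 0.12 with a 95% interval from −0.06 to 0.52 (unadjusted p = 0.0972, adjusted p = 0.866). The liver form was thus lower and the muscle form higher on average in knockout, with overlapping groups for both. The ratio of Cpt1b to Cpt1a signal within each array was 0.528, 0.391 and 0.375 in wild type against 0.527, 0.578 and 0.506 in knockout, a log2 difference of 0.33 (two-sided exact permutation p = 0.30, where 0.10 is the smallest that 3 against 3 arrays allow). A ratio of probe signals is not a ratio of transcript amounts, and only its difference between the groups can be read.

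Further probes of both isoforms read the same way as the brightest. The Cpt1a probe gave 0.588, 0.596 and 0.576 against 0.473, 0.454 and 0.563, lower on every knockout array, with a change of −0.25 ± 0.10 (unadjusted p = 0.0460, adjusted p = 0.853). The Cpt1b probe gave 1.27, 1.05 and 1.10 against 1.35, 1.57 and 1.32, higher on every knockout array, with a change of 0.31 ± 0.11 (unadjusted p = 0.0316, adjusted p = 0.831). Wild-type array 1 read highest of the wild types on both Cpt1b probes, and knockout array 2 highest of all.

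These arrays were also the brightest for skeletal muscle markers. The summed scaled signal of 12 muscle probes was 4.67, 1.89 and 1.68 in wild type against 1.36, 26.4 and 1.86 in knockout, so that knockout array 2 and, less so, wild-type array 1 stood above the rest. On knockout array 2 all 12 probes passed the 40th percentile of the array, against 7 to 10 on the others; the myosin Myh4 gave a scaled signal of 1.84 there and between 0.0368 and 0.116 elsewhere. Without these arrays together, the change of Cpt1b was 0.29 with an unadjusted p of 0.0291, a setting chosen after the data were seen. Without wild-type array 1 alone it was 0.34 (unadjusted p = 0.00993). Without knockout array 2 alone it was 0.18 (unadjusted p = 0.246). The part of muscle in the Cpt1b values was not tested.

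Cpt1c, the neuronal form, gave 2.40, 2.04 and 2.03 in wild type against 2.21, 2.13 and 2.23 in knockout, a change of 0.02 ± 0.09. Cpt2, the enzyme of the inner membrane that returns the chain to coenzyme A, gave 3.57, 3.49 and 3.36 against 3.90, 3.72 and 3.49, a change of 0.09 ± 0.07. Further probes gave −0.09 ± 0.11 for Cpt1c and −0.16 ± 0.12 for Cpt2, so neither gene had a direction shared by its probes.

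Slc25a20, which encodes the carrier that exchanges acylcarnitine for carnitine across the inner membrane, had the largest change among the 39 genes. It gave scaled signals of 0.796, 0.785 and 0.678 in wild type against 0.278, 0.361 and 0.714 in knockout. Knockout arrays 1 and 2 lay far below the wild types, and knockout array 3 lay within their range. The log2 means were −0.41 ± 0.13 and −1.27 ± 0.70 (SD, n = 3 each), a change of −0.86 ± 0.34 or 1.81-fold lower in knockout, with a 95% interval from −1.70 to −0.01 (limma unadjusted p = 0.0474, adjusted p = 0.866). The value hung on single arrays. Without knockout array 3 the change was −1.25 with an unadjusted p of 0.000417, and without knockout array 1 it was −0.57 with an unadjusted p of 0.121. Without wild-type array 1, wild-type array 2, wild-type array 3 or knockout array 2 the unadjusted p was 0.110, 0.105, 0.0725 and 0.122. Only 1 probe carried its name, so no second reading was at hand.

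**Figure D3:**
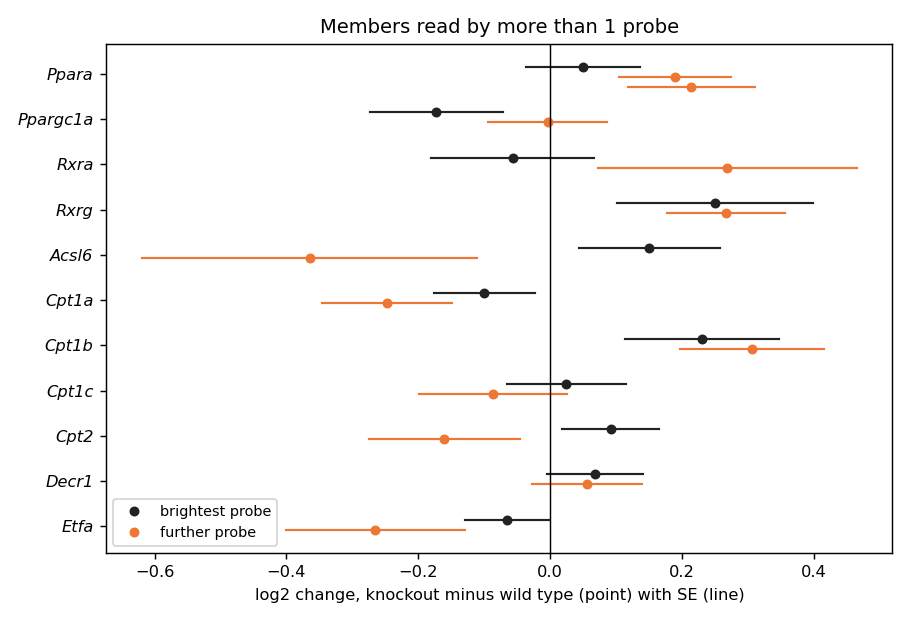
Log2 change, knockout minus wild type, with SE (lines) for the 11 genes read by more than 1 probe: the brightest probe (black), used in the text, and the further probes (orange). Both probes of Cpt1b and Rxrg lie to the right of 0 and both of Cpt1a and Etfa to the left, while those of Rxra, Acsl6, Cpt1c and Cpt2 lie on opposite sides.

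In all, 11 of the 39 genes had 12 further probes that passed the filter. Of these 12 probes 8 had the sign of the brightest probe and 4 the opposite sign. Activation and import as a whole had 11 of 12 genes measured, 6 above 0 and 5 below, with a median of 0.01.

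Mitochondrial beta-oxidation was measured in full, with 14 of 14 genes, 8 above 0 and 6 below, a median of 0.02 and 0 genes at an unadjusted p under 0.05. The 95% interval of 13 of the 14 lay between −0.5 and 0.5, with a median of 0.17 to either side, or 1.12-fold. The acyl-CoA dehydrogenases take the first step for chains of falling length. Acadvl was at 0.06 ± 0.07, Acadl at 0.06 ± 0.07 and Acadm at 0.03 ± 0.07. Acads, for short chains, was the exception in spread, with 1.17, 1.24 and 0.844 in wild type against 0.797, 0.702 and 1.22 in knockout, a change of −0.28 ± 0.25 (unadjusted p = 0.303). Wild-type array 3 and knockout array 3 each lay with the other group for Acads.

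The genes of the trifunctional protein, which carries out the next steps for long chains, were read next. Hadha, the alpha subunit, gave 1.98, 2.02 and 1.89 in wild type against 1.59, 1.67 and 1.86 in knockout, lower on every knockout array. Its log2 means were 0.97 ± 0.05 and 0.77 ± 0.12 (SD, n = 3 each), a change of −0.20 ± 0.08 or 1.15-fold (unadjusted p = 0.0511, adjusted p = 0.866). Without knockout array 3, the closest to wild type, it was −0.27 (unadjusted p = 0.0197). Hadhb, the beta subunit, gave 18.1, 18.1 and 17.8 against 17.4, 18.1 and 17.9, a change of −0.02 ± 0.06 with overlapping groups.

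The genes share a promoter region, printed above, so the signal of the alpha relative to the beta probe was set against the genotype, a comparison chosen after the values were seen. Within arrays it was 0.109, 0.111 and 0.107 in wild type against 0.0917, 0.0922 and 0.104 in knockout. Every knockout array lay below every wild-type array, with a log2 difference of −0.19 (two-sided exact permutation p = 0.10, the smallest that 3 against 3 arrays allow). Hadhb hardly differed and the Hadha groups were already apart, so the ratio mostly restates the Hadha difference. Its p-value adds no separate support.

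Echs1, the short-chain enoyl-CoA hydratase, gave 9.34, 8.86 and 9.26 in wild type against 10.01, 9.65 and 9.89 in knockout. Hadh, the dehydrogenase for short and medium hydroxyacyl chains, gave 4.55, 4.60 and 4.63 against 4.89, 4.81 and 4.999. Both were higher on every knockout array, with changes of 0.11 ± 0.06 (unadjusted p = 0.140) and 0.09 ± 0.06 (unadjusted p = 0.174). Etfa, a subunit of the flavoprotein that passes electrons from the dehydrogenases to the respiratory chain, gave 14.3, 14.1 and 14.3 against 13.04, 13.8 and 13.9, lower on every knockout array, at −0.07 ± 0.06 (unadjusted p = 0.334). Its further probe read −0.27 ± 0.14 with overlapping groups. The partner subunit Etfb was at 0.01 ± 0.07 and Etfdh, which hands the electrons to ubiquinone, at −0.04 ± 0.06. The thiolase Acaa2 was at −0.01 ± 0.07, and Eci1 and Decr1, which prepare unsaturated chains, were at 0.02 ± 0.09 and 0.07 ± 0.07.

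All 3 peroxisomal genes were measured. Ehhadh, the bifunctional enzyme and a classic PPARα target in liver, gave 0.481, 0.397 and 0.517 in wild type against 0.394, 0.489 and 0.484 in knockout, a change of −0.03 ± 0.14. Acaa1a, the peroxisomal thiolase, gave 51.4, 51.6 and 53.7 against 55.1, 59.6 and 54.1, higher on every knockout array, at 0.11 ± 0.07 (unadjusted p = 0.183). Eci2, an isomerase, gave 11.4, 10.1 and 10.8 against 10.6, 11.4 and 11.3, at 0.05 ± 0.08. The Acaa1a probe may also bind the near-identical Acaa1b, which cannot be told apart here.

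Of 6 PPAR targets 5 were measured, and 5 lay below 0, with a median of −0.09 beside 0.034 for all features. Angptl4, a secreted inhibitor of lipoprotein lipase, gave scaled signals of 6.77, 6.94 and 10.1 in wild type against 6.10, 4.66 and 5.66 in knockout. Every knockout array lay below every wild-type array, and wild-type array 3 stood above the rest. In log2 the means were 2.96 ± 0.32 and 2.44 ± 0.20 (SD, n = 3 each), a change of −0.52 ± 0.19 or 1.43-fold lower in knockout, with a 95% interval from −0.98 to −0.06 (limma unadjusted p = 0.0334, adjusted p = 0.835). Without wild-type array 3 the change was −0.33 (unadjusted p = 0.0601), without knockout array 2 it was −0.41 (unadjusted p = 0.1001), and without knockout array 3 it was −0.55 (unadjusted p = 0.0621).

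The other targets lay close to 0 with overlapping groups. Pdk4, the kinase that turns pyruvate oxidation down when fat is burned, gave 1.79, 1.66 and 1.95 in wild type against 1.65, 1.68 and 1.77 in knockout, a change of −0.08 ± 0.08. Acot1, a cytosolic acyl-CoA thioesterase, gave 6.31, 5.51 and 6.15 against 5.65, 5.63 and 5.98, at −0.06 ± 0.08. Acot2, its mitochondrial relative, gave 0.253, 0.249 and 0.217 against 0.200, 0.225 and 0.246, at −0.10 ± 0.11. Acot1 and Acot2 are near-identical in sequence, and how far their probes tell them apart was not tested. Ucp3, a muscle and brown fat uncoupling protein, was at −0.09 ± 0.15.

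Thermogenic fat cells burn fatty acids through the same route, and their markers were read beside these genes. Ucp1, the uncoupling protein that defines them, gave scaled signals of 1.01, 0.202 and 0.570 in wild type against 0.0277, 0.155 and 0.0821 in knockout. It was lower on every knockout array, at −2.79 ± 0.82 (unadjusted p = 0.0144, adjusted p = 0.766), and passed the 40th percentile on 5 of 6 arrays. Cidea, a lipid droplet protein of these cells, was at −0.27 ± 0.15 and Cox7a1, a respiratory subunit of muscle and brown fat, at −0.16 ± 0.07, while Elovl3 was dim on every array. The summed signal of the 4 probes was 22.6 to 24.4 in wild type against 19.6 to 21.96 in knockout. Cox7a1 alone gave 20.3 to 20.8 and 17.6 to 19.8 of these sums, so they mostly read that 1 probe. The part of such cells in the values of Cd36, Slc25a20 and Angptl4 was not tested.

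**Figure D4:**
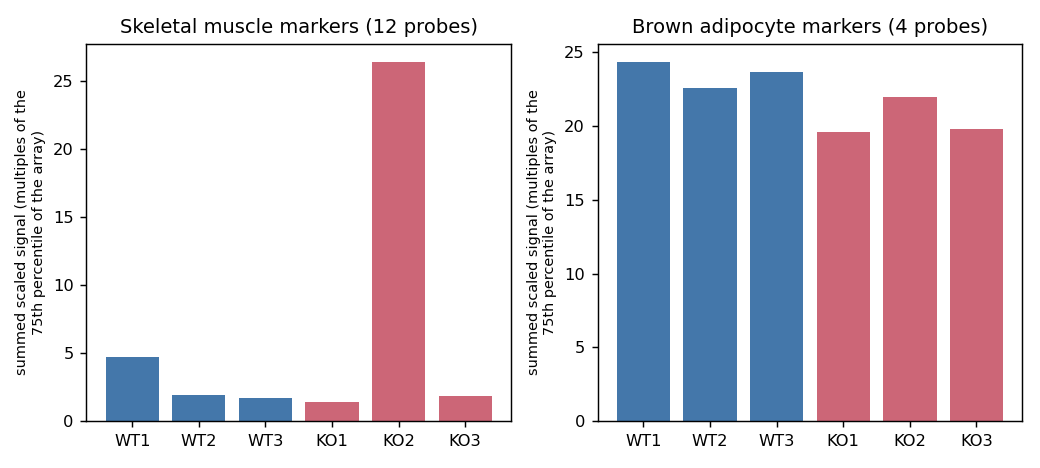
Summed scaled signal of the 12 skeletal muscle probes (left) and the 4 brown adipocyte probes (right) on each array (WT1 to WT3 wild type, KO1 to KO3 knockout); bars start at 0. Knockout array 2 stands out for muscle at 26.4, and the brown adipocyte sums are 22.6 to 24.4 in wild type against 19.6 to 21.96 in knockout. Cox7a1 alone gives 20.3 to 20.8 and 17.6 to 19.8 of the brown adipocyte sums.

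A wider list of 86 genes of the same biology, of which 77 were measured, gave 46 genes above 0 and 31 below, with a median of 0.03. Of all features 16514 lay above 0 and 10675 below, with a median of 0.034. At an unadjusted p under 0.05 limma gave 2 that were higher and 2 that were lower, 5.19% of the 77 against 5.70% of all features, and the groups were apart for 5 higher and 3 lower genes, 10.4% of the 77 against 12.4% of all features. The 4 at an unadjusted p under 0.05 became 1 without wild-type array 2 and 2 without knockout array 2 or knockout array 3. The carnitine and uptake genes held Slc27a3, an acyl-CoA synthetase of the transport protein family, at 1.29, 1.26 and 1.14 in wild type against 0.982, 1.07 and 1.04 in knockout. It was lower on every knockout array, by a change of −0.25 ± 0.08 (unadjusted p = 0.0190, adjusted p = 0.792). In the same list Crat, which makes short acylcarnitines, was at −0.18 ± 0.08 and the carnitine-family transporter Slc22a4 at 0.18 ± 0.08.

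Among further PPAR targets G0s2, the inhibitor of the lipase ATGL, gave 5.70, 6.34 and 5.04 in wild type against 4.68, 4.70 and 4.71 in knockout, lower on every knockout array at −0.27 ± 0.10 (unadjusted p = 0.0327, adjusted p = 0.835). Acot3 was at 0.25 ± 0.16, on a probe with scaled signals of only 0.0385 to 0.0607, and Klf11 at −0.16 ± 0.11. In that list 8 of 15 genes lay above 0 and 7 below, beside 16514 of all features above 0 and 10675 below. By sign, PPAR targets outside the first list thus had no shared direction, with dim and bright genes counted alike. Phyh, which starts the alpha-oxidation of phytanic acid in peroxisomes, gave 10.5, 9.83 and 10.6 against 11.2, 12.2 and 11.7, higher on every knockout array at 0.18 ± 0.07 (unadjusted p = 0.0442, adjusted p = 0.857). The other peroxisomal genes split 8 above and 8 below 0, with Pex11a at 0.10 ± 0.08 and Crot at 0.08 ± 0.08.

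Malonyl-CoA, made by acetyl-CoA carboxylase, blocks CPT1, and the genes that set it were read as well. Acacb, the carboxylase form next to mitochondria, gave 2.76, 2.62 and 2.57 in wild type against 2.77, 3.22 and 3.65 in knockout, at 0.27 ± 0.11 (unadjusted p = 0.0548). Prkaa2, a catalytic subunit of the kinase AMPK that shuts the carboxylase off, gave 1.91, 1.69 and 1.76 against 2.00, 2.03 and 1.98, at 0.17 ± 0.07 (unadjusted p = 0.0596). Both were higher on every knockout array, while the AMPK subunit gene Prkab1 was at −0.26 ± 0.15. Of the receptor partners, the coactivator Ppargc1b was at 0.36 ± 0.14 (unadjusted p = 0.0397, adjusted p = 0.837) on a probe that passed the 40th percentile on 3 of 6 arrays, and Pprc1 was at 0.21 ± 0.13 and Prdm16 at 0.14 ± 0.09. In the remaining lists Acad11 was at 0.13 ± 0.08, and the ketone body genes Acat1, Bdh1 and Oxct1 were at 0.12 ± 0.07, −0.12 ± 0.15 and 0.02 ± 0.06.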

How the data were processed

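RNA of 6 cochlear pools was labelled with Cy3 and read on 1-colour Agilent arrays, with Agilent Feature Extraction 10.7 per the submitters' processing notes. The raw signal intensity that the authors deposited for each probe and array is linear and not scaled between arrays; the signal column and background treatment are not given in the sources used here. The authors also deposited a log2 matrix, each column of which equalled the log2 raw signal of its array minus a constant. No marks for detection, saturation or control spots are in the tables.

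Log2 raw signals minus the log2 of the 75th percentile of their array were computed for 55676 probes, of which 30625 carried 1 gene in the platform annotation and 25051 none. Probes above the 40th percentile on at least 3 arrays were kept, with the brightest probe per gene and unnamed probes as their own features. The genotypes were compared by limma 3.58.1 under R 4.3.3 (lmFit, eBayes, no covariates) over 27189 features, with a threshold of 0.05 on the adjusted p. The number of arrays limits the precision. The fit was tested on simulated data.

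Values on every array are given for the receptors, the CPT enzymes and Slc25a20, and up to 4 genes of each other role with the lowest unadjusted p. They are also given for genes at an unadjusted p under 0.05 or with groups apart. Up to 3 genes of each wider list, with Rxrb besides, and up to 4 of each marker list are named. The members, lists and tests were chosen with earlier results of these data known. Alternatives covered scaling, source, filter, probes, spread model, replicate number, thresholds and left-out arrays. Same-numbered wild-type and knockout arrays deviated from their group means with correlations of −0.13, −0.04 and −0.14. These values showed no pairing by number, but with 3 arrays per group they cannot exclude one. Normexp and blocks for slide or scan date were not run, since the tables used hold no such columns.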

Additional observations from a re-analysis of the deposited data

How the results depend on the processing

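Of 741 values of single members under other settings, 668 kept their direction and their side of an unadjusted p of 0.05, 13 no longer passed it, 17 newly passed it, and 0 reached an adjusted p under 0.05. The other 43, of 15 members with changes of at most 0.15 in size, turned direction, 0 of them at an unadjusted p under 0.05; 24 members never did. The turned values were Rxra 0.11, Acsl6 −0.11, Cpt1c −0.031, Cpt2 −0.034 with the mean of the probes; Ppara −0.0024, Pparg −0.13, Acsl5 −0.036, Hadhb 0.0057, Etfb −0.021 with array weights; Slc27a1 −0.0039, Etfb −0.015 with quantile normalization; Pparg −0.0048 with median scaling; and Pparg −0.13, Rxra 0.082, Acsl5 −0.014, Acadm −0.0094, Acaa2 0.011, Etfb −0.0033 without wild-type array 1 and knockout array 2. With 1 array left out, members that turned ranged from −0.14 to 0.10 for Pparg, −0.17 to 0.023 for Rxra, −0.033 to 0.15 for Acsl5, −0.0497 to 0.026 for Acaa2, −0.023 to 0.048 for Etfb, −0.14 to 0.073 for Ehhadh, −0.12 to 0.16 for Slc27a1, −0.017 to 0.10 for Cpt1c, −0.051 to 0.083 for Eci1, −0.23 to 0.015 for Ucp3, −0.0296 to 0.00087 for Hadhb, −0.011 to 0.063 for Acadm and −0.0198 to 0.088 for Ppara. The median change of the members, 0.0058, stayed within the spread between arrays under every setting run. The count of members at an unadjusted p under 0.05, 3 in the fit described, was 6 when every probe was its own feature, 7 with array weights and 0 at a threshold of 0.01; it ran from 1, without wild-type array 2 or knockout array 2, to 4 with 1 array left out. Hadha passed 0.05 in 7 settings and Cd36 failed it without wild-type array 2. The count of members with groups apart, 8, was 16 without wild-type array 1 and knockout array 2 and ran from 8 to 16 (wild-type array 1) with 1 array left out, where fewer arrays overlap less by construction. The count of wider pathway genes, 4, was 2 with quantile normalization, without the filter or without wild-type array 1 and knockout array 2, 7 with array weights and 0 at 0.01, and ran from 1 (wild-type array 2) to 4. Features called at an adjusted p under 0.05, 0 in all (827 higher and 723 lower at an unadjusted p under 0.05), were 1 with quantile normalization, raised dim signals, named genes alone, a trended robust prior or a threshold of 0.10, and 3 with array weights; they ran from 0 to 2 (wild-type array 2). Fabp7, whose size rests on dim knockout signals, was at −8.42 in the fit described (adjusted p = 0.0610) and passed with −8.43 under quantile normalization, −6.57 with raised signals, −8.42 with named genes or the trended prior and −8.64 with weights, and ran from −8.95 to −8.15 without 1 knockout array. Without 1 wild-type array, or filtered on all 6, it did not pass the filter and had no value. The cause of these shifts was not tested.

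The deviations from group means showed no pairing by replicate number, but could not exclude one. With the number as a block, 2 members (Cd36 and Angptl4), 0 wider pathway genes and 0 features passed, 8 members had groups apart, the median was 0.0058 and Fabp7 was at −8.42.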
